A study of Homo sapiens with 12 samples.

Results

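The DNA replication and G1/S genes are a list of 44 human genes whose products license replication origins, open the double helix, copy it and supply its building blocks, together with a few regulators of entry into S phase. They were chosen by name from these roles, with earlier results of these data known. Of the 44 genes, 43 were paired with an identifier in a count table of 57905 identifiers, and UHRF1 was not paired with one in the sources used here, so it has no value. All 43 were among the 13832 genes with enough reads to be tested.

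The cells were OCI-AML3, a human line established from acute myeloid leukaemia, sampled as 4 groups of 3 RNA libraries (12 in all). In the first arm, cells received SA at 500 µM for 6 days (group SA) or its vehicle for the same time (group Vehicle). The labels do not expand SA, and the title of the series concerns inhibition of heme biosynthesis. In the second arm, cells that had been transduced with a guide RNA against ALAS1 (group sgALAS1) or a scrambled guide (group sgSCR) received doxycycline, which switches the guide on, for 7 days. The ALAS1 enzyme catalyses the first and rate-limiting step of heme synthesis outside red blood cell precursors. Both groups of the second arm carry a guide and doxycycline, and neither group of the first arm is labelled with them. The sources used here do not say whether the transduced cells were a pool or 1 clone. They also do not say whether the 3 libraries of a group came from separate cultures, so p-values measure the spread between these libraries, which may be technical.

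Before S phase, the origin recognition complex, CDC6 and CDT1 load the ring-shaped MCM2-7 helicase onto origins. At the start of S phase CDC45 and GINS switch this helicase on, and primase, the replicative polymerases, the sliding clamp PCNA and its loader RFC then copy the DNA. Many of the genes are textbook targets of E2F transcription factors, which are released from RB proteins when G1 cyclin-dependent kinases become active, and their transcripts peak around the G1/S transition in dividing cells.

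Reads came from the 3′ ends of polyadenylated transcripts (QuantSeq), and the libraries held 4658513 to 7339843 reads assigned to genes. Levels are given as normalised CPM, read counts scaled to a common library size and composition, and n is 3 libraries per group throughout. A ± after a log2 fold change is its standard error, and adjusted p-values are from edgeR. Libraries of the same group correlated at 0.959 to 0.971 (Pearson, log2 CPM). ALAS1 stood at 106, 102 and 111 CPM in SA libraries, against 37.5, 36.4 and 31.1 CPM in Vehicle libraries, a log2 fold change of 1.60 ± 0.14. In the guide arm ALAS1 stood at 26.2, 26.3 and 27.3 CPM in sgALAS1 libraries, against 38.6, 41.9 and 37.4 CPM in sgSCR libraries, a log2 fold change of -0.56 ± 0.14 (adjusted p = 0.00777, and 0.0503 without sgSCR replicate 2). The myeloid genes CD33, LYZ, SPI1 and CEBPA were present in every library. MPO was low at 1.55 to 4.97 CPM, and ANPEP was low too, with 236 reads over all libraries beside 214 for MPO. In every library 4 of 6 erythroid markers had 0 reads. The summed level of 8 myeloid markers was 2180 to 2250 CPM in SA and 1120 to 1200 CPM in Vehicle, and 1760 to 1990 CPM in sgALAS1 and 965 to 1110 CPM in sgSCR. With SA 2 of these 8 rose and 1 fell, and with sgALAS1 3 rose and 1 fell. FLT3, with values given below, was lower in SA and in sgALAS1 than in their controls. LYZ, the lysozyme gene, averaged 1455 ± 139.5 CPM in SA and 563.9 ± 74.6 CPM in Vehicle, and 1030 ± 71.9 CPM in sgALAS1 and 340.7 ± 39.1 CPM in sgSCR (SD), and rose in both arms (adjusted p = 1.36e-09 and 1.9e-11). The summed level of 4 T and NK cell markers was 5.05 to 7.96 CPM in SA and 21 to 23.7 CPM in Vehicle, and 0.222 to 0.772 CPM in sgALAS1 and 12.7 to 14.1 CPM in sgSCR, with CD3E at 0 in every library. Over all tested genes of chromosome 8 the median log2 fold change was -0.25 with SA and -0.34 with sgALAS1, and over those of chromosome 13 it was -0.39 and -0.36, beside 0.0042 and 0.012 over the other chromosomes. The part of these marker and chromosome shifts in the results below was not tested, apart from the fits without chromosomes 8 and 13 given with them.

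Replication and G1/S transcripts were lower in both treated groups, and none passed the test as higher. Where a role or list had 0 calls with edgeR in an arm, DESeq2 also called 0 of its genes there. With SA, 17 of 43 genes fell and 0 rose at an adjusted p under 0.05 (39.5%), beside 11.1% of all tested genes called in either direction, 4.83% higher and 6.24% lower. With sgALAS1, 15 of 43 fell and 0 rose (34.9%), beside 11.7% called in either direction, 4.88% higher and 6.85% lower. The median log2 fold change of the 43 genes was -0.43 with SA and -0.42 with sgALAS1, while the median over all tested genes was -0.0095 and -0.0034. The fold change was below 0 for 39 genes with SA, for 41 with sgALAS1 and for 38 in both comparisons.

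The fall is also visible in the summed level of the 43 genes. That sum was 2821, 2813 and 2708 CPM in SA libraries, against 3607, 3394 and 3844 CPM in Vehicle libraries. It was 2555, 2558 and 2426 CPM in sgALAS1 libraries, against 3228, 3321 and 3545 CPM in sgSCR libraries. Every treated library lay below every control library of its own arm. In RNA from whole cultures, fewer cells in S phase and less of each transcript per cell cannot be told apart. Single genes separated their groups completely in 23 of 43 cases with SA, beside 27.4% of all tested genes, and in 29 of 43 cases with sgALAS1, beside 29.1%. MCM4, GINS4 and RFC3 lie on chromosomes 8 and 13. Over the other 40 the median was -0.42 with SA and -0.41 with sgALAS1, and a fit without both chromosomes, chosen after seeing the data, called 15 and 12 of these 40 lower. Leaving out SA replicate 1 reduced the SA count to 9, leaving out SA replicate 3 reduced it to 11, and leaving out sgALAS1 replicate 3 reduced the sgALAS1 count to 9. Control libraries mattered too. The SA count was 12 without Vehicle replicate 2, and the sgALAS1 count was 10 without sgSCR replicate 3.

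**Figure D1:**
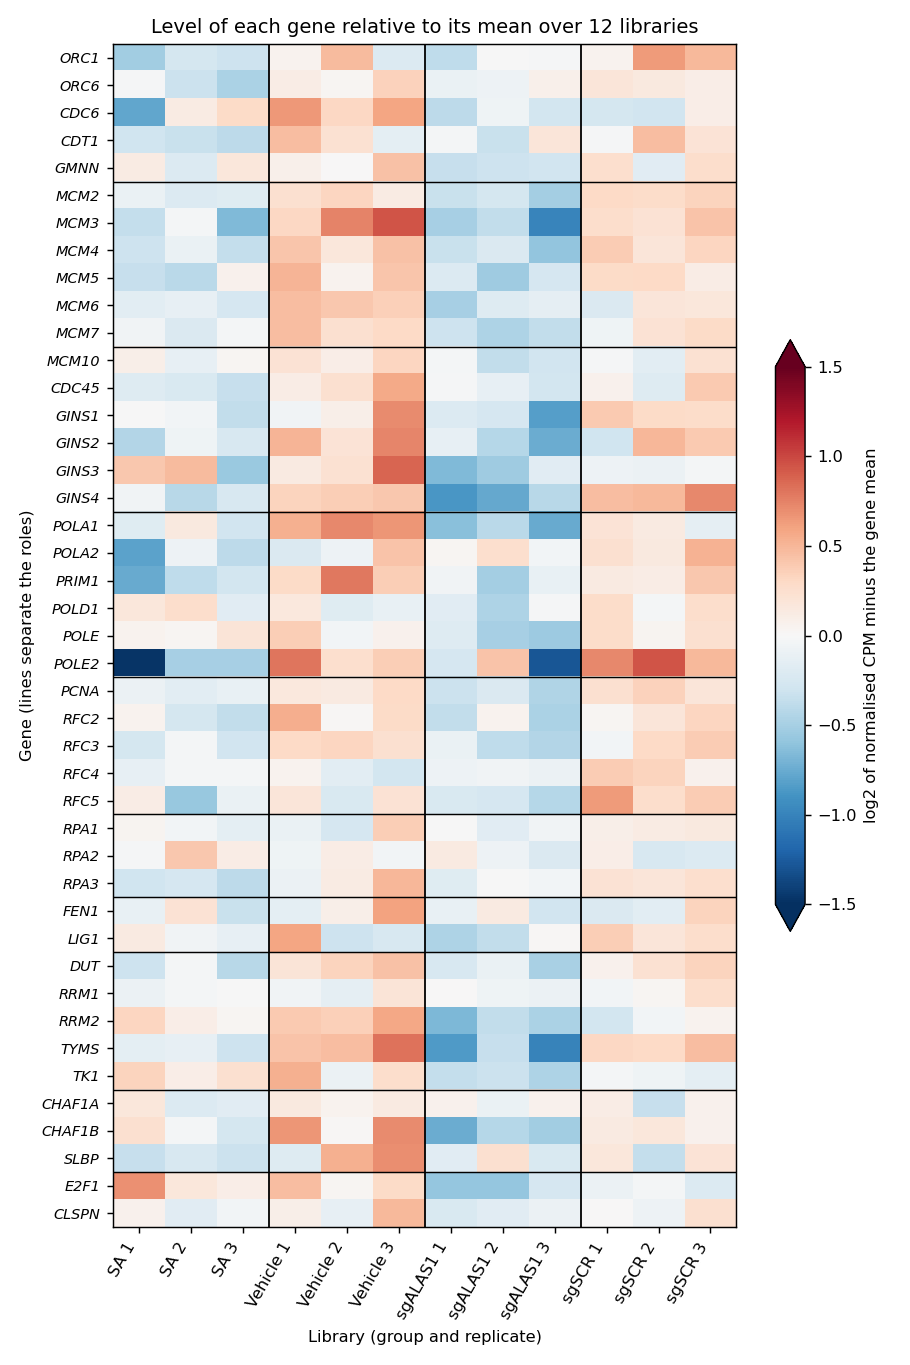
Level of the 43 genes in each of 12 libraries, as log2 of normalised CPM minus the mean of that gene over all libraries (red higher, blue lower; colours saturate at the ends of the scale), with genes grouped by role. Most rows are bluer in the SA and sgALAS1 columns than in the Vehicle and sgSCR columns, and RPA2 and RRM1 show little contrast.

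**Figure D2:**
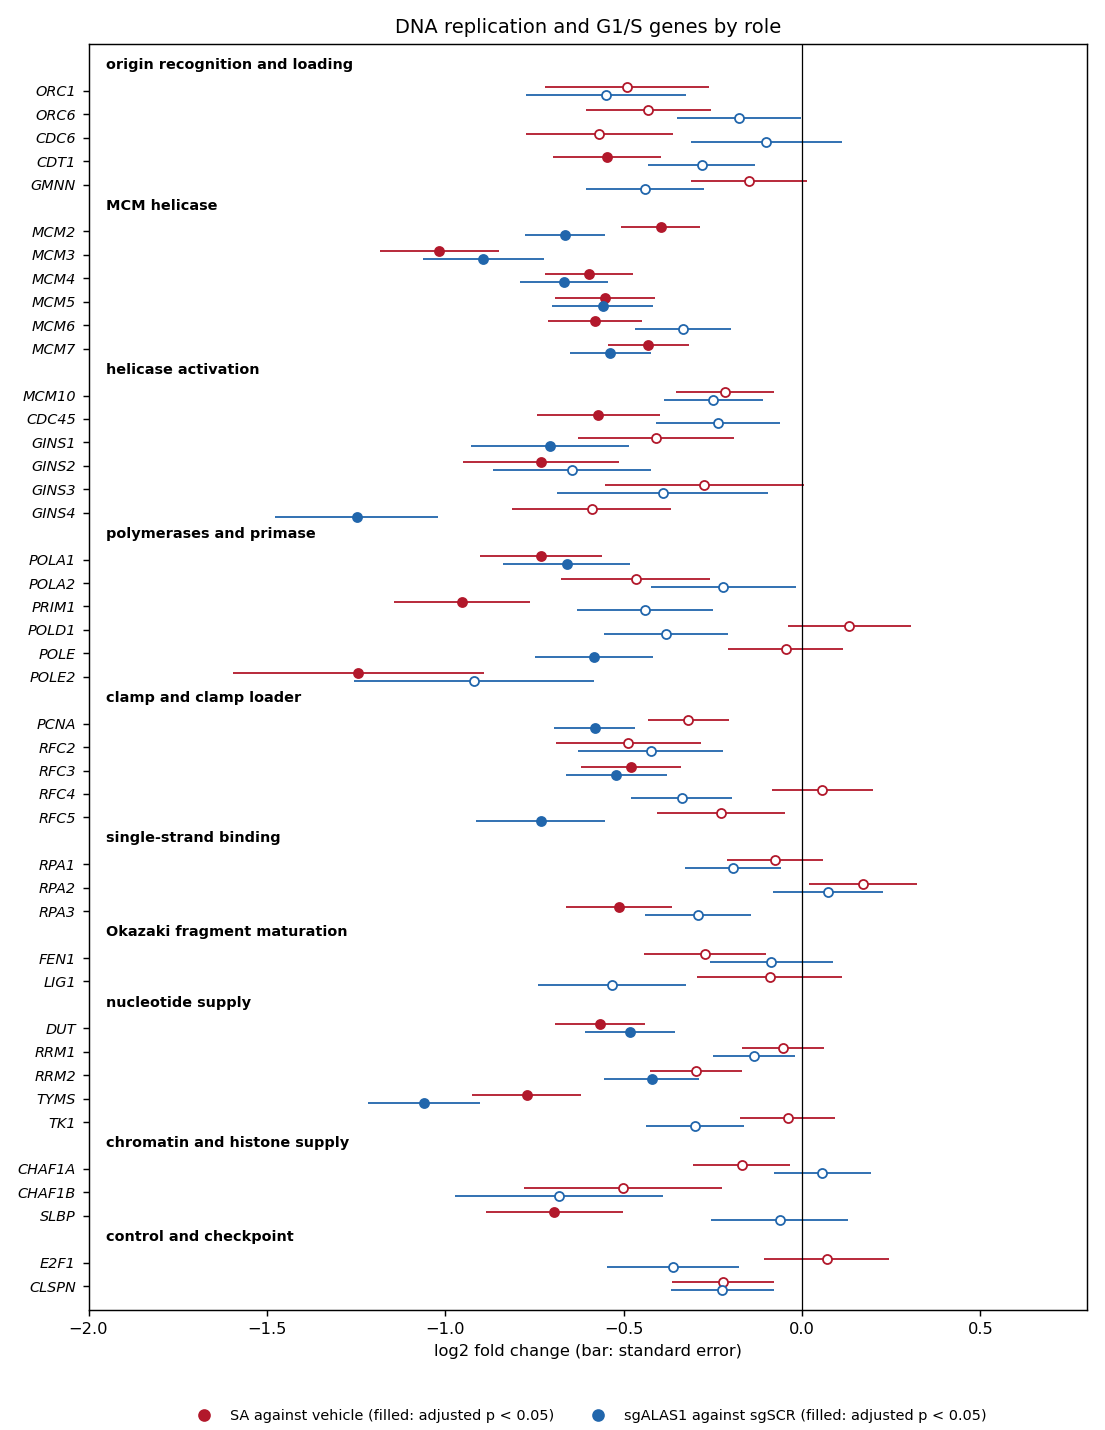
Log2 fold change of each of the 43 genes, SA against Vehicle (red) and sgALAS1 against sgSCR (blue), with bars for the standard error and filled points for an adjusted p under 0.05. All 17 filled red and 15 filled blue points lie left of 0, and all 6 MCM subunits are filled in red.

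Across the comparisons 9 genes passed the test in both arms, all lower: the helicase subunits MCM2, MCM3, MCM4, MCM5 and MCM7, the polymerase subunit POLA1, the clamp loader subunit RFC3 and the nucleotide enzymes DUT and TYMS. A further 8 passed with SA and not with sgALAS1 (CDT1, MCM6, CDC45, GINS2, PRIM1, POLE2, RPA3 and SLBP), and 6 passed with sgALAS1 and not with SA (GINS1, GINS4, POLE, PCNA, RFC5 and RRM2). The remaining 20 passed in neither. A call in 1 arm is not a difference between the arms. The test of the difference itself called 0 of 43 genes, with edgeR and with DESeq2, beside 1.19% of all tested genes (0.427% higher and 0.759% lower), and 4 of the 43 had an unadjusted p under 0.05.

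Promoter letters were read for these genes because E2F factors are known to bind short sequences near their starts. The 250 bases before each RefSeq start (GRCh38.p14) were searched on both strands for 4 spellings of the E2F site, TTTCCCGC, TTTGGCGC, TTTCGCGC and TTTGCCGC, and a gene with several starts was counted once if any of them held one; on a double strand TTTGGCGC and TTTCGCGC can overlap. Of the 44 genes 39 have an entry, and 16 of these 39 (41%) hold one of the spellings, beside 928 of 27305 genes of the whole table (3.4%). The whole table was not limited to the 13832 tested genes, so these shares come from unlike sets. Many of the genes were already known as E2F targets, so the higher share follows from their choice and says nothing about SA or sgALAS1. Among genes lower in both arms 6 of 7 with an entry hold one (all but MCM2), among genes lower in 1 arm 5 of 12, and among genes that passed in neither 4 of 19 (21.1%). MCM4 and MCM5, also lower in both arms, have no entry. UHRF1 holds a spelling but has no expression value, so it is in none of these sets. The letters CCAAT, searched in the same way, lie in 24 of the 39 (61.5%) and in 37% of the genes of the whole table. They lie in 3 of 7 genes lower in both arms (42.9%), 9 of 12 lower in 1 arm (75%) and 11 of 19 that passed in neither (57.9%). These are counts of letters, not of bound factors, and no test was made. The 6 promoters of genes lower in both arms are shown 5′ to 3′ in the direction of the gene and end at the base before its start, with the E2F letters in capitals; GCGGGAAA and GCGCCAAA are TTTCCCGC and TTTGGCGC read on the opposite strand. In MCM3 (chr6:52284743-52284992, minus strand) the site begins 174 bases before the start, and in MCM7 (chr7:100101398-100101647, minus strand, 1 of 3 listed starts) the sites begin 187 and 9 bases before it. In DUT (chr15:48331947-48332196, plus strand, 1 of 4 listed starts) they begin 42 and 27 bases before the start, and in TYMS (chr18:657403-657652, plus strand) the site begins 39 bases before it. In POLA1 (chrX:24693668-24693917, plus strand) the site begins 137 bases before the start, and in RFC3 (chr13:33817899-33818148, plus strand) 55 bases before it.
MCM3: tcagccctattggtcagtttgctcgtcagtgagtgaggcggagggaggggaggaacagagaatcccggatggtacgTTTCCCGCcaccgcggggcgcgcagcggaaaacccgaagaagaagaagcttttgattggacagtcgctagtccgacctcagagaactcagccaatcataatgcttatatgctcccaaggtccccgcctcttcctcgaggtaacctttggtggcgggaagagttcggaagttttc
MCM7: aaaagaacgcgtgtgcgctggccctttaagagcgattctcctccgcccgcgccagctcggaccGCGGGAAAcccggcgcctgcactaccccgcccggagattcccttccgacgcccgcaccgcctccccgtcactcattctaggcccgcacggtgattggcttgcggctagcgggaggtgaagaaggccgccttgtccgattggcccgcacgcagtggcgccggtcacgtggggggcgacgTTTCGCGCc
DUT: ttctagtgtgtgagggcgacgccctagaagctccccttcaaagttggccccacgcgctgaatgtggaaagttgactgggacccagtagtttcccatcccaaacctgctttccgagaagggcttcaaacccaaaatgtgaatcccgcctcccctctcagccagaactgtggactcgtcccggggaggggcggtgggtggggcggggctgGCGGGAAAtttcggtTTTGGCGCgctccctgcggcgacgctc
TYMS: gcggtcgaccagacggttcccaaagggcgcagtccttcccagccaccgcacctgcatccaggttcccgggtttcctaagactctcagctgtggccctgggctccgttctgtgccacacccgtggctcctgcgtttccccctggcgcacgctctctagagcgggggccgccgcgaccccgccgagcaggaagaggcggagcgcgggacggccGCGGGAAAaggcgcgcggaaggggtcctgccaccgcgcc
POLA1: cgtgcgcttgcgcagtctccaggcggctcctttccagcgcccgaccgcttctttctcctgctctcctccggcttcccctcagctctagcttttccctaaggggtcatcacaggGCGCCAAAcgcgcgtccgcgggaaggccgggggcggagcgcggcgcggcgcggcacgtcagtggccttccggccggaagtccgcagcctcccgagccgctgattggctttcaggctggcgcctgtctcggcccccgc
RFC3: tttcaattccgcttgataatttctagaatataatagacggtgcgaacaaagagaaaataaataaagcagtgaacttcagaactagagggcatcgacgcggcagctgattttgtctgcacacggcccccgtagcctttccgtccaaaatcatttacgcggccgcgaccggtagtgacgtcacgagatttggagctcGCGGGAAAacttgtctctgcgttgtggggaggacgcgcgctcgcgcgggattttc

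The 6 subunits of the MCM2-7 helicase, the ring that unwinds DNA ahead of the fork, were the role with the most calls. All 6 fell with SA and 5 fell with sgALAS1. Their summed level was 834 ± 7.86 CPM in SA and 1205 ± 56.2 CPM in Vehicle, and 725 ± 24.8 CPM in sgALAS1 and 1096 ± 52.0 CPM in sgSCR (SD, n = 3 each). MCM3 changed most of the 6. It stood at 57.1, 71.8 and 46.5 CPM in SA libraries, against 91.2, 123 and 141 CPM in Vehicle libraries, a log2 fold change of -1.02 ± 0.17 (adjusted p = 8.54e-05). It stood at 52, 56.7 and 37 CPM in sgALAS1 libraries, against 88.2, 85.2 and 98.5 CPM in sgSCR libraries, a log2 fold change of -0.89 ± 0.17 (adjusted p = 0.000403). The groups did not overlap in either arm, and Vehicle replicate 3 was the highest library. MCM2 had 148, 138 and 140 CPM in SA libraries, against 188, 199 and 173 CPM in Vehicle libraries, a log2 fold change of -0.40 ± 0.11 (adjusted p = 0.0185). In the guide arm MCM2 had 126, 132 and 112 CPM in sgALAS1 libraries, against 195, 192 and 200 CPM in sgSCR libraries, a log2 fold change of -0.67 ± 0.11 (adjusted p = 9.37e-05). Again no treated library reached a control library of its arm.

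MCM4, which lies on chromosome 8, had 139, 161 and 134 CPM in SA libraries, against 230, 193 and 233 CPM in Vehicle libraries, a log2 fold change of -0.60 ± 0.12 (adjusted p = 0.00126). It had 137, 148 and 114 CPM in sgALAS1 libraries, against 224, 196 and 215 CPM in sgSCR libraries, a log2 fold change of -0.67 ± 0.12 (adjusted p = 0.000299). All treated libraries were lower than all controls, by more than the chromosome median given above. MCM7 had 334, 298 and 338 CPM in SA libraries, against 476, 408 and 425 CPM in Vehicle libraries, a log2 fold change of -0.43 ± 0.11 (adjusted p = 0.0115). It had 278, 250 and 268 CPM in sgALAS1 libraries, against 330, 403 and 420 CPM in sgSCR libraries, a log2 fold change of -0.54 ± 0.11 (adjusted p = 0.00142). MCM7 too separated the groups in both arms.

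MCM5 was at 84.7, 80.8 and 112 CPM in SA libraries, against 153, 111 and 143 CPM in Vehicle libraries, a log2 fold change of -0.55 ± 0.14 (adjusted p = 0.00951). Here SA replicate 3 lay just above Vehicle replicate 2, so the groups overlapped slightly. MCM5 was at 93.4, 74.1 and 90 CPM in sgALAS1 libraries, against 131, 132 and 116 CPM in sgSCR libraries, without overlap, a log2 fold change of -0.56 ± 0.14 (adjusted p = 0.00771). MCM6 was at 74.6, 76.2 and 69.6 CPM in SA libraries, against 114, 110 and 106 CPM in Vehicle libraries, a log2 fold change of -0.58 ± 0.13 (adjusted p = 0.0034). In the guide arm MCM6 was at 58.8, 72.3 and 75.4 CPM in sgALAS1 libraries, against 71.5, 94 and 93.7 CPM in sgSCR libraries, a log2 fold change of -0.33 ± 0.13 that did not pass (adjusted p = 0.105). The overlap came from sgSCR replicate 1, and without that library the MCM6 change passed (adjusted p = 0.0427). With SA, the MCM2 call was lost without SA replicate 2, SA replicate 3 or Vehicle replicate 2 (adjusted p up to 0.0859), the MCM5 call without SA replicate 1 or 2 (up to 0.0671) and the MCM7 call without SA replicate 2 (0.0582). With sgALAS1, the MCM5 call was lost without sgALAS1 replicate 2 (0.0572).

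**Figure D3:**
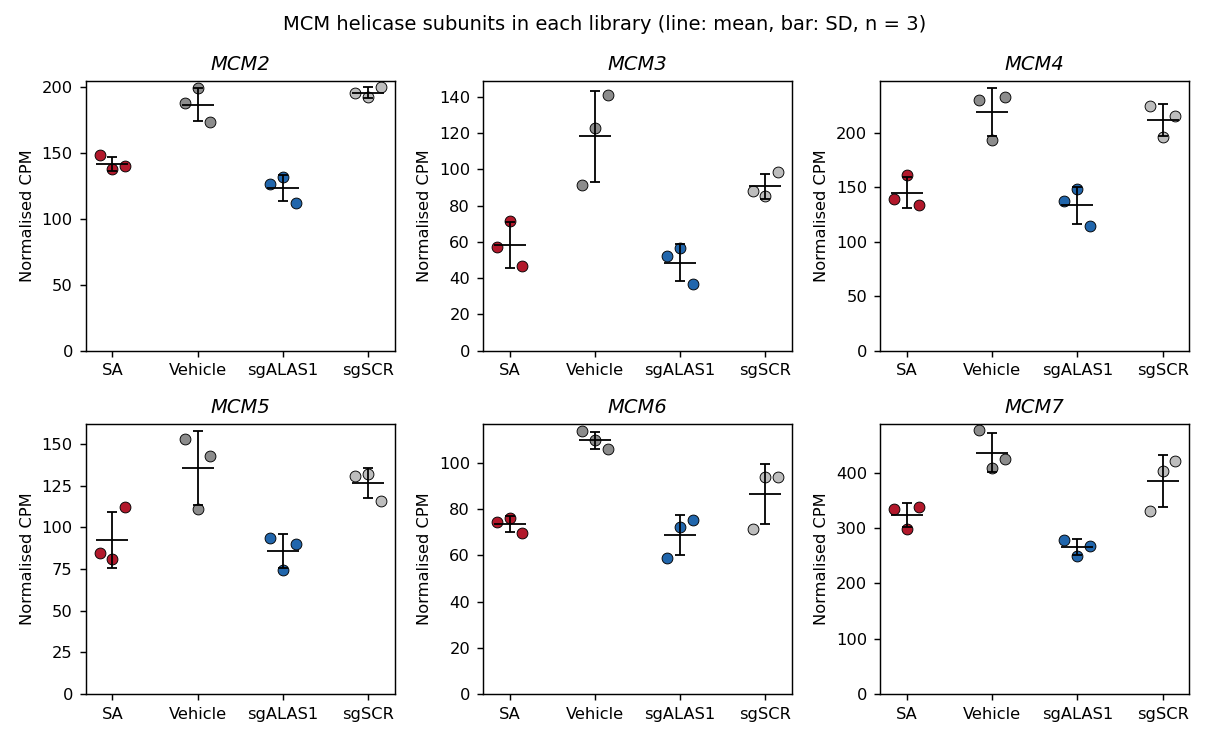
Normalised CPM of the 6 MCM2-7 helicase subunits in each library (points), with the mean (line) and SD (bar) of 3 libraries per group; each vertical axis starts at 0. SA and sgALAS1 libraries lie below their controls throughout, except where MCM5 overlaps slightly between SA and Vehicle and where MCM6 overlaps between sgALAS1 and sgSCR.

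The 5 genes of origin recognition and MCM loading moved less uniformly. With SA, 1 of 5 fell, and with sgALAS1, 0 of 5 passed (2 at an unadjusted p under 0.05). The one that fell was CDT1, the loading factor that brings MCM2-7 to origins. It had 81, 79.4 and 76 CPM in SA libraries, against 138, 117 and 90.2 CPM in Vehicle libraries, a log2 fold change of -0.55 ± 0.15 (adjusted p = 0.0163). The SA libraries lay close together below a wide Vehicle group, and the call was lost without SA replicate 1 or 3 or Vehicle replicate 1 or 2 (adjusted p up to 0.1). CDT1 had 98, 78.9 and 113 CPM in sgALAS1 libraries, against 98.6, 138 and 115 CPM in sgSCR libraries, with overlap and a log2 fold change of -0.28 ± 0.15 (adjusted p = 0.25). The origin recognition subunit ORC1 had a log2 fold change of -0.49 with SA and -0.55 with sgALAS1, and ORC6 had -0.43 with SA and -0.18 with sgALAS1, none of which passed. CDC6, the ATPase that joins ORC to recruit the helicase, had 26.0 ± 9.08 CPM in SA and 38.7 ± 4.70 CPM in Vehicle (SD), a log2 fold change of -0.57 that did not pass (adjusted p = 0.0719). It passed in a fit without SA replicate 3, in one without a filter on low counts and in one with a replicate block, while leaving out SA replicate 1 gave -0.31 (adjusted p = 0.395). In the guide arm CDC6 had 22.8 ± 2.70 CPM in sgALAS1 and 24.4 ± 3.76 CPM in sgSCR. Geminin (GMNN), the inhibitor of CDT1, had -0.15 with SA and -0.44 with sgALAS1 as log2 fold changes (adjusted p = 0.0821, and 0.0462 without sgSCR replicate 2).

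Helicase activation is represented by MCM10, CDC45 and the 4 GINS subunits, and 2 of these 6 genes fell in each arm. With SA they were CDC45 (log2 fold change -0.57 ± 0.17; adjusted p = 0.0294) and GINS2 (-0.73 ± 0.22; adjusted p = 0.0267). With sgALAS1 they were GINS1 (-0.71 ± 0.22; adjusted p = 0.0342) and GINS4. GINS4, on chromosome 8, had 7.1, 7.63 and 9.75 CPM in sgALAS1 libraries, against 17.9, 18.3 and 21.5 CPM in sgSCR libraries, a log2 fold change of -1.25 ± 0.23 (adjusted p = 0.000273). It had 12.6, 9.75 and 11 CPM in SA libraries, against 16.4, 16.8 and 17.2 CPM in Vehicle libraries, a log2 fold change of -0.59 ± 0.22 that missed the threshold (adjusted p = 0.086). The groups were separate in both arms. GINS3 and MCM10, which helps start unwinding at the origin, passed in neither arm, with log2 fold changes of -0.27 and -0.22 with SA and of -0.39 and -0.25 with sgALAS1. Several of these calls rested on single libraries: CDC45 was lost without any 1 SA library or Vehicle replicate 2 or 3 (adjusted p up to 0.187), and GINS2 without SA replicate 1 or 3 or Vehicle replicate 3 (up to 0.141). GINS1 was lost with DESeq2 and without sgALAS1 replicate 3 or any 1 sgSCR library (up to 0.173). GINS2 had a log2 fold change of -0.64 with sgALAS1 (adjusted p = 0.0563), which passed without sgALAS1 replicate 1 or sgSCR replicate 1 (down to 0.0145).

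Polymerase α and its primase start every new strand, and polymerases ε and δ extend it. Of these 6 genes 3 fell with SA and 2 with sgALAS1. POLA1, the catalytic subunit of polymerase α, had 24.5, 30.8 and 22.7 CPM in SA libraries, against 40, 45.7 and 43.7 CPM in Vehicle libraries, a log2 fold change of -0.73 ± 0.17 (adjusted p = 0.00455). It had 17.9, 20.9 and 16.4 CPM in sgALAS1 libraries, against 31.9, 30.4 and 25.3 CPM in sgSCR libraries, a log2 fold change of -0.66 ± 0.18 (adjusted p = 0.0129). The groups were separate in both arms, and SA libraries and sgSCR libraries lay at like levels. PRIM1, the catalytic subunit of primase, had 15.5, 20.1 and 21.6 CPM in SA libraries, against 31.9, 45.5 and 33.8 CPM in Vehicle libraries, a log2 fold change of -0.95 ± 0.19 (adjusted p = 0.000977). It had 25.2, 18.4 and 24.2 CPM in sgALAS1 libraries, against 28.7, 28.4 and 34.7 CPM in sgSCR libraries, a log2 fold change of -0.44 ± 0.19 that did not pass (adjusted p = 0.139). PRIM1 thus separated the groups in both arms but passed in 1.

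POLE2, the second subunit of polymerase ε, fell with SA (4.48 ± 1.53 CPM in SA and 10.7 ± 2.28 CPM in Vehicle, SD; log2 fold change -1.24 ± 0.35; adjusted p = 0.0189). With sgALAS1 its log2 fold change was -0.92 ± 0.34 (adjusted p = 0.0739), and sgALAS1 replicate 2 stood well above the other 2 libraries of its group. POLE, the catalytic subunit of the same polymerase, passed in the guide arm: 26.4 ± 3.53 CPM in sgALAS1 and 39.7 ± 3.35 CPM in sgSCR (log2 fold change -0.58 ± 0.16; adjusted p = 0.0173), against 37.1 ± 2.40 CPM in SA and 38.3 ± 5.91 CPM in Vehicle (-0.046 ± 0.16; adjusted p = 0.906). The difference between these POLE effects was -0.54 (95% interval -1.01 to -0.067; adjusted p = 0.33). POLA2, the accessory subunit of polymerase α, had -0.47 with SA and -0.22 with sgALAS1 as log2 fold changes, and POLD1, the catalytic subunit of polymerase δ, had 0.13 with SA and -0.38 with sgALAS1, and none passed. The POLE2 call was lost without SA replicate 1 or Vehicle replicate 1 (adjusted p up to 0.116). The POLA1 call in the guide arm was lost without sgALAS1 replicate 1 or 3 or sgSCR replicate 1 or 2 (up to 0.0666), and that of POLE without sgALAS1 replicate 2 or 3 or sgSCR replicate 1 or 3 (up to 0.0807). Without sgALAS1 replicate 2, POLE2 passed there (0.0167).

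PCNA, the ring that tethers polymerases to DNA, and the subunits of RFC, which loads it, gave 1 call of 5 with SA and 3 of 5 with sgALAS1. PCNA had 111, 119 and 101 CPM in sgALAS1 libraries, against 163, 176 and 157 CPM in sgSCR libraries, a log2 fold change of -0.58 ± 0.11 (adjusted p = 0.000632). It had 130, 124 and 128 CPM in SA libraries, against 154, 152 and 170 CPM in Vehicle libraries, a log2 fold change of -0.32 ± 0.11 (adjusted p = 0.0679). Both arms separated without overlap. Among the 18 alternatives that kept Vehicle as the control, the SA change of PCNA passed with DESeq2 alone. RFC3, on chromosome 13, had 54.2, 63.5 and 53.2 CPM in SA libraries, against 79.9, 81.4 and 76.8 CPM in Vehicle libraries, a log2 fold change of -0.48 ± 0.14 (adjusted p = 0.0233). It had 60.8, 50 and 47.9 CPM in sgALAS1 libraries, against 63.1, 80.2 and 84.5 CPM in sgSCR libraries, a log2 fold change of -0.52 ± 0.14 (adjusted p = 0.0129). The groups were separate in both arms, narrowly so in the guide arm, and the median of chromosome 13 was itself lower, as given above. RFC5 had 28.2, 27.8 and 24.6 CPM in sgALAS1 libraries, against 51.6, 39.9 and 43.2 CPM in sgSCR libraries, a log2 fold change of -0.73 ± 0.18 (adjusted p = 0.00588). In the SA arm RFC5 overlapped, at 35.9, 22.3 and 31 CPM in SA libraries, against 37.7, 28.3 and 38.6 CPM in Vehicle libraries (-0.23 ± 0.18; adjusted p = 0.477).

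The other loader subunits passed in neither arm: RFC2 had -0.49 with SA and -0.42 with sgALAS1 as log2 fold changes, and RFC4 had 0.057 with SA and -0.34 with sgALAS1. The RFC3 call was lost without SA replicate 1 or 3 or Vehicle replicate 2 (adjusted p up to 0.113) and, in the guide arm, without sgALAS1 replicate 2 or 3 or sgSCR replicate 2 or 3 (up to 0.0811). Of the RPA trimer, which coats single-stranded DNA at the fork, 1 of 3 subunits fell with SA and 0 of 3 passed with sgALAS1 (0 also at an unadjusted p under 0.05). That subunit was RPA3, at 40.8 ± 2.03 CPM in SA and 58.3 ± 12.4 CPM in Vehicle (SD; log2 fold change -0.51 ± 0.15; adjusted p = 0.0229), with -0.29 in the guide arm. RPA1 had -0.076 with SA and -0.19 with sgALAS1, and RPA2 was the one subunit above 0 in both arms, at 0.17 with SA and 0.073 with sgALAS1. The RPA3 call was lost without SA replicate 1 or 3 or Vehicle replicate 3 and in a fit of the 2 groups alone (up to 0.215). Of the 2 genes of Okazaki fragment maturation 0 passed in either arm, with 0 for SA and 1 for sgALAS1 at an unadjusted p under 0.05: the flap endonuclease FEN1 had -0.27 with SA and -0.086 with sgALAS1 as log2 fold changes, and the ligase LIG1 had -0.091 and -0.53 (adjusted p = 0.0937 in the guide arm, and 0.041 without Vehicle replicate 1).

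Of the 5 enzymes that supply nucleotides, 2 fell with SA and 3 fell with sgALAS1. TYMS, which makes thymidylate, fell most. It had 53.4, 53.9 and 47.5 CPM in SA libraries, against 79.3, 80.9 and 104 CPM in Vehicle libraries, a log2 fold change of -0.77 ± 0.15 (adjusted p = 0.000871). It had 32.6, 46.5 and 29.5 CPM in sgALAS1 libraries, against 73.3, 72.3 and 81 CPM in sgSCR libraries, a log2 fold change of -1.06 ± 0.16 (adjusted p = 1.4e-05), with a wide gap between groups in both arms. DUT, which hydrolyses dUTP to the precursor that TYMS uses, had 170, 207 and 158 CPM in SA libraries, against 241, 266 and 286 CPM in Vehicle libraries, a log2 fold change of -0.57 ± 0.13 (adjusted p = 0.00277). It had 178, 196 and 150 CPM in sgALAS1 libraries, against 220, 247 and 265 CPM in sgSCR libraries, a log2 fold change of -0.48 ± 0.13 (adjusted p = 0.00957). DUT groups were separate in both arms. The large subunit of ribonucleotide reductase, RRM1, had 209 ± 6.84 CPM in SA and 217 ± 26.6 CPM in Vehicle, and 209 ± 7.39 CPM in sgALAS1 and 229 ± 25.1 CPM in sgSCR (SD), and passed in neither arm. The interval of its log2 fold change was -0.29 to 0.18 with SA and -0.37 to 0.10 with sgALAS1 (95%). Thymidine kinase TK1 had -0.040 with SA and -0.30 with sgALAS1 as log2 fold changes, and neither passed. RRM2, the small subunit whose level follows S phase, fell with sgALAS1 (61.2 ± 6.26 CPM in sgALAS1 and 81.8 ± 9.42 CPM in sgSCR, SD; log2 fold change -0.42 ± 0.13; adjusted p = 0.0355), and had -0.30 ± 0.13 with SA (adjusted p = 0.143). In the guide arm the RRM2 call was lost without a filter on low counts and without sgALAS1 replicate 1 or 3 or sgSCR replicate 2 or 3 (up to 0.183), and the DUT call without sgALAS1 replicate 3 or sgSCR replicate 3 (up to 0.0882).

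**Figure D4:**
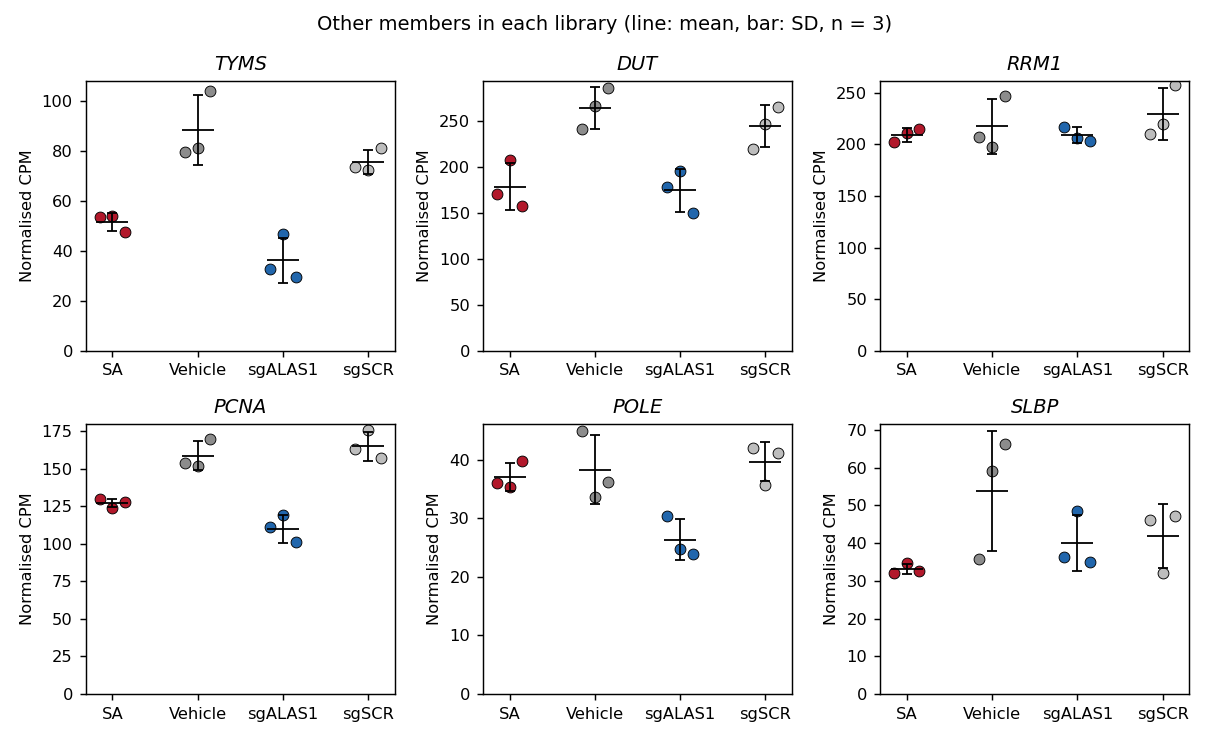
Normalised CPM of TYMS, DUT, RRM1, PCNA, POLE and SLBP in each library (points), with the mean (line) and SD (bar) of 3 libraries per group; each vertical axis starts at 0. TYMS and DUT are lower in SA and in sgALAS1 than in their controls, RRM1 overlaps in both arms, POLE separates in the guide arm and SLBP shows a wide Vehicle group.

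Histone supply and chromatin assembly gave 1 call of 3 with SA and 0 of 3 with sgALAS1 (1 at an unadjusted p under 0.05). SLBP, which binds the stem-loop of histone mRNA, had 32.1, 34.6 and 32.6 CPM in SA libraries, against 35.9, 59.2 and 66.2 CPM in Vehicle libraries, a log2 fold change of -0.69 ± 0.19 (adjusted p = 0.0165). The groups did not overlap, but Vehicle replicate 1 lay just above the SA libraries, and the call was lost without SA replicate 1 or 3 or Vehicle replicate 2 or 3 (adjusted p up to 0.134). SLBP had 36.3, 48.5 and 35 CPM in sgALAS1 libraries, against 46.2, 32 and 47.3 CPM in sgSCR libraries, fully overlapping, a log2 fold change of -0.063 ± 0.19 (adjusted p = 0.89). The large and middle subunits of chromatin assembly factor 1, CHAF1A and CHAF1B, had log2 fold changes of -0.17 and -0.50 with SA and of 0.056 and -0.68 with sgALAS1, and none passed. The transcription factor E2F1 had 0.069 with SA and -0.36 with sgALAS1, and the checkpoint adaptor claspin (CLSPN) had -0.22 in both, with 0 of these 2 genes passing in either arm, also at an unadjusted p under 0.05. The 26 genes that did not pass with SA had log2 fold changes of -0.59 to 0.17 (median -0.22), and the 28 that did not pass with sgALAS1 had -0.92 to 0.073 (median -0.30).

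The 3′ ends of 8 genes share bases with an exon of another gene in GENCODE 29, counted over the last 500 bases of the gene, and the sources used here do not state whether counting used the strand. These are MCM2, GINS2, GINS4, PRIM1, RFC4, RFC5, TYMS and CHAF1A, and their values are uncertain to that degree. The MCM2 partner had 0 reads. The GINS4 partner, AC009630.2 on the opposite strand, had 634 reads over all libraries beside 963 for GINS4, and its fold change is not given. Partner and member reads were 33841 and 1909 for PRIM1, 6173 and 1504 for GINS2, and 9113 and 3530 for RFC4. They were 1083 and 2361 for RFC5, 1577 and 4389 for TYMS, and 3906 and 5923 for CHAF1A. ENOSF1, which lies against TYMS on the opposite strand, had log2 fold changes of -0.56 with SA (adjusted p = 0.0845) and -0.71 with sgALAS1 (adjusted p = 0.0275), in the direction of TYMS. NACA, which overlaps PRIM1 on the same strand, had -0.40 with SA (adjusted p = 0.0539) and 0.12 with sgALAS1. GSE1, opposite GINS2, had -0.23 with SA and -0.48 with sgALAS1 (adjusted p = 0.00853), and WSB2, opposite RFC5, had -0.24 with SA and -0.58 with sgALAS1. Processed copies are known for several members, and of the 10 with a named copy in the table only DUT copies had reads, 57 in all (0.381% of those of DUT).

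Between the arms, the estimated difference (sgALAS1 effect minus SA effect) was lowest for GINS4, at -0.66 (95% interval -1.31 to -0.0073; adjusted p = 0.412), and highest for SLBP, at 0.63 (0.076 to 1.19; adjusted p = 0.333). For the MCM2-7 subunits it lay between -0.27 for MCM2 (-0.59 to 0.054) and 0.25 for MCM6 (-0.14 to 0.63). These intervals still allow differences of over 0.5 on the log2 scale for single genes, so a missed threshold does not show that the arms acted alike. No setting tried called any of the 43 genes different between the arms.

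The control groups were also set against each other, since sgSCR cells differ from Vehicle cells in guide, doxycycline and days. Between sgSCR and Vehicle 1 of 43 genes passed, a lower one, beside 1.43% of all tested genes (0.47% higher and 0.962% lower), and 9 had an unadjusted p under 0.05. This was RRM2, at 71.3, 84.4 and 89.6 CPM in sgSCR libraries, against 114, 111 and 130 CPM in Vehicle libraries (log2 fold change -0.53 ± 0.13; adjusted p = 0.0271). Its groups did not overlap, which held for 9 of 43 genes beside 17.1% of all tested genes. The RRM2 call was lost without Vehicle replicate 2 or 3 or sgSCR replicate 1 or 2 (adjusted p up to 0.213). The median of the 43 genes was -0.11, from -0.66 for CDC6 (adjusted p = 0.111) to 0.38 for RFC4 (adjusted p = 0.203). With sgSCR in place of Vehicle as the control for SA, 16 of 43 genes were lower and 0 higher, beside 13.6% of all tested genes called (5.91% higher and 7.65% lower), and 11 of these 16 were among the 17 called against Vehicle. MCM2, MCM3, MCM4 and MCM5 were among the 11, and MCM6, MCM7 and POLA1 were not called against sgSCR.

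Other genes of the pathway were counted in lists that exclude the 43. Of 16 further genes of origin licensing and firing, 0 passed with SA (4 at an unadjusted p under 0.05) and 3 fell with sgALAS1. These were DBF4, the activator of the CDC7 kinase (log2 fold change -0.65, adjusted p = 0.00357), the origin recognition subunit ORC3 (-1.24, 0.0117) and the helicase RECQL4 on chromosome 8 (-0.45, 0.0356). The list median was -0.23 with SA and -0.32 with sgALAS1. Of 23 further genes of the fork and its polymerases, 6 fell and 0 rose with SA, and 5 fell and 0 rose with sgALAS1 (26.1% and 21.7%). The PCNA-binding factor PCLAF fell in both, at 195, 214 and 187 CPM in SA libraries, against 341, 333 and 330 CPM in Vehicle libraries, and at 165, 169 and 147 CPM in sgALAS1 libraries, against 243, 280 and 261 CPM in sgSCR libraries (log2 fold changes -0.75 and -0.71). DSCC1, a subunit of an alternative clamp loader encoded on chromosome 8, fell in both as well (-1.34 and -0.86). The fork-associated RNase H2 subunit RNASEH2B, on chromosome 13, had -0.64 and the large loader subunit RFC1 -0.52 with SA, and the primase subunit PRIM2 had -1.01 with sgALAS1. The polymerase δ subunit POLD2 passed in both arms, at -0.40 with SA (adjusted p = 0.0447) and -0.48 with sgALAS1 (adjusted p = 0.0134), and its SA call was lost in 14 of 18 alternatives (adjusted p up to 0.203).

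Of 27 further S phase genes known as E2F targets, 6 fell and 0 rose with SA (22.2%, list median -0.31), and 8 fell and 0 rose with sgALAS1 (29.6%, list median -0.39). CDCA7, a partner of the chromatin remodeller HELLS, fell in both arms (-0.56 and -0.59). The deubiquitinase USP1 (-0.46 with SA and -0.43 with sgALAS1) and the mismatch repair subunit MSH6 (-0.43 with SA and -0.55 with sgALAS1) passed in both arms as well. The helicase BLM (-0.71) was among those that fell with SA, and HELLS itself (-0.63) among those that fell with sgALAS1. The 9 genes of the replication checkpoint had 0 calls in either arm, with 0 and 1 at an unadjusted p under 0.05. Of these 9 genes, 5 had a fold change below 0 with SA and 8 with sgALAS1.

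Single libraries decided several calls of these lists. With SA, USP1 was lost without SA replicate 1 or 3 or Vehicle replicate 3 (adjusted p up to 0.152), RFC1 without SA replicate 3 or Vehicle replicate 2 (0.11), RNASEH2B without SA replicate 3 (0.0692) and BLM without SA replicate 2 or Vehicle replicate 3 (0.0526). The MSH6 call with SA was lost in 9 of 18 alternatives (up to 0.198), and the USP1 call with sgALAS1 in 7 of 18 (up to 0.112). With sgALAS1, DSCC1 was lost without sgALAS1 replicate 2 (0.0681), POLD2 without sgALAS1 replicate 1 or sgSCR replicate 3 (0.0592) and PRIM2 without sgALAS1 replicate 2 or sgSCR replicate 1 (0.132). ORC3 was lost without sgSCR replicate 2 (0.0503), HELLS without sgALAS1 replicate 1 or sgSCR replicate 1 or 3 (0.067) and RECQL4 without any 1 of the 6 libraries of its arm or the filter on low counts (0.168).

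Regulators upstream of the replication genes were counted as well. Of 15 E2F and RB family genes 0 passed with SA (3 at an unadjusted p under 0.05) and 1 fell with sgALAS1, the repressor E2F7 (1.54, 0.727 and 2.22 CPM in sgALAS1 libraries, against 6.18, 4.02 and 7.61 CPM in sgSCR libraries; adjusted p = 0.00689). Of 11 tested genes among 13 G1 cyclins, kinases and inhibitors, 2 rose and 2 fell in each arm (36.4%). Of all tested genes, 11.1% were called with SA and 11.7% with sgALAS1. The inhibitor CDKN1A (p21) had 254, 295 and 271 CPM in SA libraries, against 159, 120 and 143 CPM in Vehicle libraries, a log2 fold change of 0.96 ± 0.13 (adjusted p = 9.14e-06). It had 236, 212 and 245 CPM in sgALAS1 libraries, against 162, 124 and 107 CPM in sgSCR libraries, a log2 fold change of 0.82 ± 0.13 (adjusted p = 6.7e-05). CDKN1A thus moved opposite to the replication genes in both arms. MYC, on chromosome 8, had 40.6, 57.3 and 55.8 CPM in SA libraries, against 116, 121 and 89.4 CPM in Vehicle libraries (-1.09 ± 0.15; adjusted p = 8.66e-06). It had 58.8, 50.3 and 44.5 CPM in sgALAS1 libraries, against 92.8, 111 and 89.3 CPM in sgSCR libraries (-0.92 ± 0.15; adjusted p = 6.75e-05).

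Cyclin D2 (CCND2) fell in both arms and was nearly absent in 1 of them. It had 4.86, 8.16 and 6.16 CPM in SA libraries, against 37, 46.7 and 38.4 CPM in Vehicle libraries (log2 fold change -2.67 ± 0.27; adjusted p = 4.56e-08). It had 0, 1.27 and 0 CPM in sgALAS1 libraries, against 40.4, 36.8 and 35.5 CPM in sgSCR libraries (adjusted p = 1.05e-12). Cyclin D3 (CCND3) rose with SA (0.39 ± 0.12; adjusted p = 0.0279), a call lost without SA replicate 1 or 3, Vehicle replicate 2 or 3 or the filter on low counts (adjusted p up to 0.158), and the inhibitor gene CDKN2A rose with sgALAS1 (1.06 ± 0.17; adjusted p = 4.82e-05).

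Transcripts of G2 and mitosis gave few calls, in both directions. Fold changes of this list were below 0 for 17 of 26 genes with SA and for 24 of 26 with sgALAS1. Of all 13832 tested genes, 7050 and 6961 were below 0. Of 26 such genes 1 rose and 2 fell with SA, and 1 rose and 1 fell with sgALAS1 (11.5% and 7.69%, near the shares of all tested genes), with medians of -0.041 and -0.16. With SA the kinetochore gene NDC80 (log2 fold change -1.20, adjusted p = 0.00108) and the centromeric histone CENPA (-0.60, 0.0441) fell and the ubiquitin-conjugating enzyme UBE2C rose (0.42, 0.0147). With sgALAS1 the mitotic kinase PLK1 fell (-0.69, 0.00118) and the kinetochore motor CENPE rose (0.64, 0.00147). The CENPA call was lost in 12 of 18 alternatives (adjusted p up to 0.193) and that of UBE2C without SA replicate 1 or 3 or Vehicle replicate 2 (up to 0.0833). The lists were not tested against each other.

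**Figure D5:**
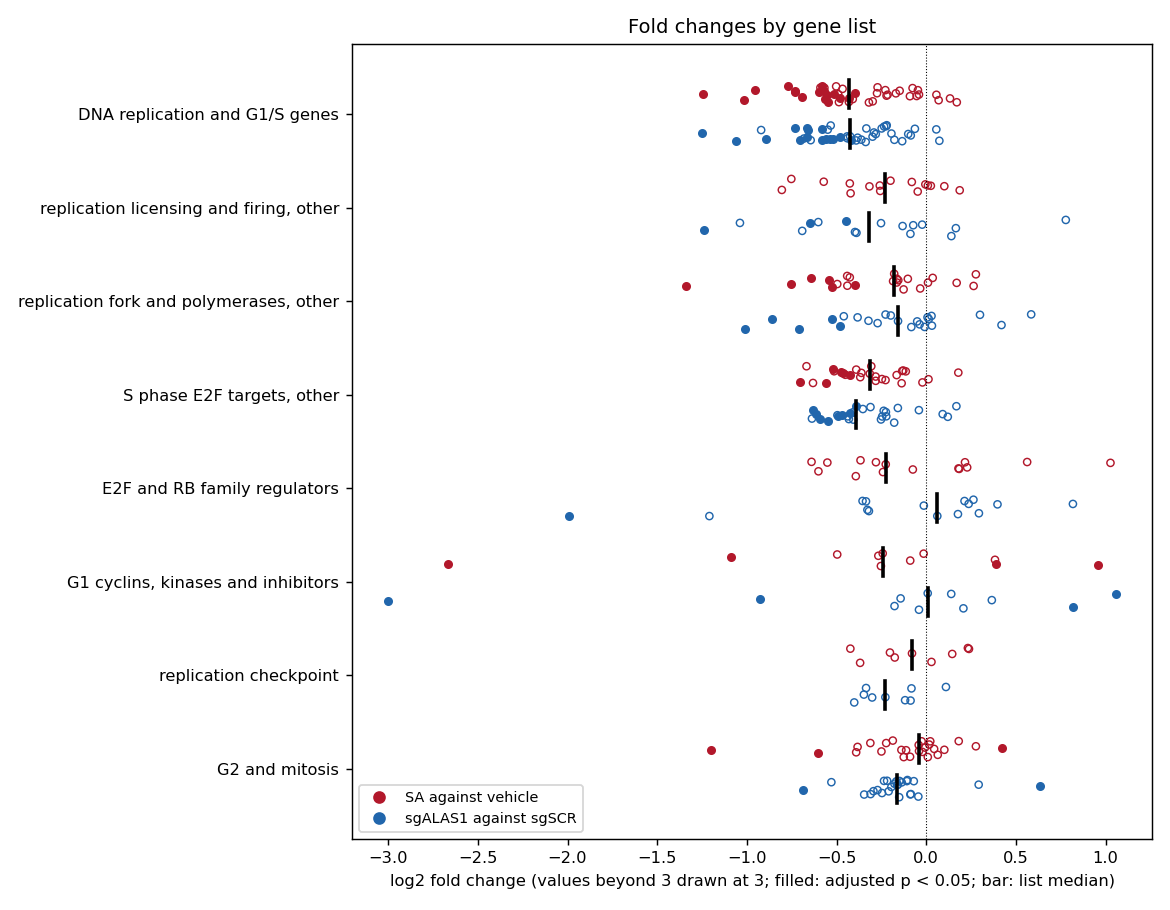
Log2 fold changes of the 43 replication and G1/S genes and of the genes of 7 other lists, SA against Vehicle (red) and sgALAS1 against sgSCR (blue), with filled points for an adjusted p under 0.05 and a black bar for the list median; CCND2 with sgALAS1 is drawn at the left end of the scale. The medians of the replication and G1/S genes are -0.43 and -0.42, those of the other E2F targets -0.31 and -0.39, and those of G2 and mitosis -0.041 and -0.16.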

How the data were processed

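Expression was measured in 12 OCI-AML3 libraries, 3 in each of 4 groups, by QuantSeq 3′ mRNA sequencing with single-end reads, per the labels' protocols. The authors deposited raw read counts for each Ensembl gene, with no scaling; every value was found to be a whole number, and column totals differ. Per the submitters' processing notes, the tools were bcl2fastq 2.17.1.14, cutadapt 1.14, HISAT2 2.0.4, featureCounts of Subread 2.0.0, edgeR 3.34.0 and limma 3.48.3, and the build was hg19. The sources used here do not state the annotation, the strand setting or the treatment of reads with several matches. A current gene table named 51996 identifiers and GENCODE 29 a further 342, and 5567 stayed without one.

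All 12 libraries were fitted together by group in R 4.3.3 with edgeR 4.0.16: TMM scaling, the filterByExpr filter by group and the two-sided quasi-likelihood F-test, with Benjamini-Hochberg adjustment over 13832 genes and a threshold of 0.05. The SE of a log2 fold change was derived from F, as the change over √F in size, and the biological coefficient of variation was 16.4%. No replicate block was used. Alternatives were RLE size factors, no filter, DESeq2 1.42.0, the compared groups alone, a replicate block, sgSCR as the control for SA and leaving out each library. The fits were tested on simulated counts. Library totals of 4658513 to 7339843 reads limit the precision of low counts, and counts do not show which reads are PCR copies. The genes and lists were chosen with earlier results of these data known. Values in every library are given for the 16 genes with the smallest p among those that passed in an arm, and for other lists up to 4 passing genes per comparison are named. Genes outside these rules that the text names were chosen after their values were seen. One listed gene is not reported here. Promoter sequences are from RefSeq (GRCh38.p14) and were used for letters only, not for the counts.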

Additional observations from a re-analysis of the deposited data

Results flagged for a closer look

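No replication or G1/S gene differed between the arms by the test of the difference, but 4 genes of the other lists did. ALAS1 itself had an sgALAS1 effect minus SA effect of -2.16 on the log2 scale (adjusted p = 1.14e-08), since it was higher in SA than in Vehicle and lower in sgALAS1 than in sgSCR. Cyclin D2 (CCND2) had a difference of -3.73 (adjusted p = 0.000172), a fitted value with no firm size, because 2 of 3 sgALAS1 libraries had 0 reads. The receptor gene FLT3, on chromosome 13, had a difference of -1.42 (adjusted p = 0.00286), with 4.63, 5.63 and 4.88 CPM in sgALAS1, against 41.4, 38.9 and 34.9 CPM in sgSCR, and 17.9, 14.3 and 15.1 CPM in SA, against 44, 41.3 and 48.8 CPM in Vehicle. NKG7, a marker of NK and T cells, had a difference of -3.83 (adjusted p = 0.000674), with 0.154, 0.727 and 0.222 CPM in sgALAS1, against 8.37, 8.52 and 8.27 CPM in sgSCR, and 4.47, 7.36 and 4.86 CPM in SA, against 8.28, 8.8 and 8.49 CPM in Vehicle. The sgALAS1 levels of NKG7 rest on few reads, so this difference too has no firm size.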

How the results depend on the processing

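With RLE size factors, no filter, DESeq2, the compared groups alone, or sgSCR as the control, between 16 and 18 of the 43 genes were lower with SA, and with those that apply between 14 and 15 were lower with sgALAS1; none was higher in any of them. The labels do not say what a replicate number marks, and libraries with the same number were not more alike (correlations of residuals -0.0661 to 0.0572) than other pairs (-0.152 to 0.109). With the replicate block 18 of 43 genes were lower with SA and 15 with sgALAS1, and 1704, 1796, 227 and 266 genes passed for SA, sgALAS1, the difference between the arms and sgSCR against Vehicle. Leaving out 1 library at a time gave 9 to 17 of the 43 genes for SA, 9 to 16 for sgALAS1, 0 for the difference and 0 to 1 for sgSCR against Vehicle. Over all genes it gave 954 to 1595 calls for SA, 1134 to 1761 for sgALAS1, 109 to 340 for the difference and 84 to 276 for sgSCR against Vehicle. Without the filter 277 genes passed for the difference, where 164 passed with it, and 2 of the 43 passed for sgSCR against Vehicle. The causes of these moves were not tested. No reported fold change that passed changed sign. With 1 library left out, uncalled genes crossed 0 with SA: RFC4 ranged over -0.013 to 0.16, RRM1 over -0.12 to 0.054, POLE over -0.13 to 0.092, GINS3 over -0.46 to 0.0033, RPA1 over -0.20 to 0.13, TK1 over -0.19 to 0.13, E2F1 over -0.14 to 0.18 and LIG1 over -0.25 to 0.27. With sgALAS1 RPA2 ranged over -0.034 to 0.18, SLBP over -0.23 to 0.039, FEN1 over -0.21 to 0.11, CDC6 over -0.20 to 0.037 and CHAF1A over -0.066 to 0.14. Depth limits genes of low count, such as POLE2 and CHAF1B, whose intervals are wide.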
